A study of Mus musculus with 12 samples.

Results

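T cells whose receptor beta chain is built on the V segment TRBV20 were described in tumour infiltrates of mice. They were taken as every beta (TRB) chain assigned to TRBV20, which was 1232 of 24612 TRB chains, on 1188 of 23219 cell barcodes. The members were thus chosen by the V segment call of each chain, and that call, with the residues the segment writes, is given below as a description. Barcodes with exactly 1 TRB chain and 1 or 2 alpha (TRA) chains were used as cells, which left 1036 TRBV20 cells of 19115 (5.42%). Cells of a library with the same beta V segment, J segment and CDR3 bases were counted as 1 distinct receptor, which gave 307 TRBV20 receptors of 10586 (2.90%). The number of cells sharing a receptor is called its clone size. Among the TRBV20 receptors, 277 were seen in a single cell, 19 in 2 to 4 cells and 11 in 5 or more.

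There were 3 libraries from tumours given LNP-P20-mAb and 3 from tumours given LNP-Ctrl, each at 40 µg per mouse by a single injection into the tumour on day 10 (the labels do not expand either name, and the series title speaks of an antibody to mutant p53). All mice were C57BL/6, aged 6 to 8 weeks, and carried subcutaneous tumours of the colon carcinoma line MC38, also of mouse origin, as a derivative labelled as a p53 knockout with a p53 substitution that the labels write in conflicting ways. The tumour graft is thus shared by both treatments, and no untreated or tumour-free tissue was among the samples. CD45-positive leukocytes, about 10000 per sample, were sorted without selection for T cell subsets and used for droplet-based 5′ single-cell sequencing with TCR enrichment. Nothing in the labels says whether the libraries of a treatment came from separate mice, so that p-values measure only the spread between these libraries.

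A T cell receptor pairs a beta with an alpha chain, and each chain carries 3 loops, of which the first pair is written in the V segment. The CDR3 is made anew in each cell where segments are joined with trimming and added bases. These are V, D and J segments in the beta chain, and V and J segments in the alpha chain. Clones of T cells descend from 1 cell and keep both chains, so a clone size reads how far a cell has multiplied or been sampled. In mice the TRBV20 segment is also known by the older synonym Tcrb-V15, and it lies between Trbv19 and Trbv21 in the RefSeq gene order. TRAV7 is a multi-copy alpha V family, and copies whose names carry D or N are near-identical duplicates, so that calls of a single copy are uncertain.

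The libraries held 5050 to 9982 chains on 2446 to 4869 barcodes, 85835 to 145847 UMIs, and 2016 to 3923 usable cells. LNP-P20-mAb 1 and 2 shared 121 distinct TRB receptors, against 1 to 7 for every other pair of libraries. In LNP-P20-mAb 1 85.7% of cells had a shared receptor, and in LNP-P20-mAb 2 it was 85.1%. Of these receptors, 5 were TRBV20, carried by 39 cells of the first library and by 14 of the second. Results are therefore also given with that pair pooled where that matters. Any 2 libraries had 11 to 29 cell barcodes in common, and none of these carried the same TRBV20 chain.

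All TRBV20 receptors shared the loops written in the segment. The CDR1 read GFQATS and the CDR2 read STVNSAI, each with 1 DNA form over all libraries. The start of the CDR3 is written in TRBV20 up to the point where trimming began, and the most frequent bases there are shown with the loops, since they set the frame in which the joints below are read.

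CDR1: ggttttcaggcaacttct
CDR2: tctactgtgaactcagcaatc
CDR3 start: tgtggtgctaggga

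The beta CDR3 sequences of the largest TRBV20 clones are shown next, because these few loops held most TRBV20 cells. Capitals mark the bases between the unbroken match to the shared TRBV20 start and that to the shared end of the J segment in these files. They hold D bases, added bases and any sequence variant. Bases beyond a first mismatch are in capitals even where they match the shared start or end again.

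LNP-P20-mAb 3, 114 cells: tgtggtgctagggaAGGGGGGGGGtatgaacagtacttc
LNP-P20-mAb 3, 38 cells: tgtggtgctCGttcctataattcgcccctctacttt
LNP-P20-mAb 1, 33 cells, and LNP-P20-mAb 2, 10 cells: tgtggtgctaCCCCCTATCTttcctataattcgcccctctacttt
LNP-P20-mAb 3, 13 cells: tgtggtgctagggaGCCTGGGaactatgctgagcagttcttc
LNP-Ctrl 1, 468 cells: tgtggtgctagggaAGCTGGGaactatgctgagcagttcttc
LNP-Ctrl 3, 14 cells: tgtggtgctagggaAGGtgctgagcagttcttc

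The clone of 114 cells in LNP-P20-mAb 3, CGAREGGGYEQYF with TRBJ2-7, was 4.01% of all usable cells of that library (95% exact Clopper-Pearson bounds 3.32% and 4.80%, and here and below such bounds allow for counting error alone). Its cells held 2 alpha chains, both of the TRAV7 family: TRAV7-3 with TRAJ7 in 114 cells and TRAV7N-6 with TRAJ23 in 107 cells. The clone of 468 cells in LNP-Ctrl 1, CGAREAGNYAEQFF with TRBJ2-1, made up 14.04% of that library (12.9% to 15.3%). It paired in all 468 cells with 1 alpha chain, TRAV7D-2 joined to TRAJ30 with the CDR3 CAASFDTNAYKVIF. These 2 clones together were 582 cells, or 56.2% of all TRBV20 cells.

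The clone of 38 cells in LNP-P20-mAb 3, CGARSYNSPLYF with TRBJ1-6, also carried TRAV7D-2, here joined to TRAJ22 with the CDR3 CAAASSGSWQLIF. The clone found in both LNP-P20-mAb 1 and 2, with TRBJ1-6, carried TRAV6N-7 with TRAJ7 and the CDR3 CALGDYSNNRLTL. The clone of 13 cells in LNP-P20-mAb 3, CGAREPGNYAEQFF, carried TRAV7D-2 with TRAJ30 and the CDR3 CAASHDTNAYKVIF, beside a TRAV6D-5 chain in 12 cells. The clone of 14 cells in LNP-Ctrl 3, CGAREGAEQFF, carried TRAV7-6 with TRAJ31 and the short CDR3 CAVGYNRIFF. LNP-Ctrl 2 had no TRBV20 clone above 2 cells.

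By distinct receptors, TRBV20 made up 3.94%, 2.51% and 2.30% in LNP-P20-mAb 1 to 3, against 0.390%, 3.31% and 3.96% in LNP-Ctrl 1 to 3. The treatments overlapped, and LNP-Ctrl 1 lay far under the other libraries, with 7 TRBV20 receptors of 1795 (95% exact interval 0.157% to 0.802%). Among 22 TRBV labels, TRBV20 had the widest ratio of highest to lowest share over the libraries, 10.2, followed by TRBV3 at 7.67 and TRBV15 at 6.40. This rank rests on LNP-Ctrl 1: without that library the ratio of TRBV20 was 1.72, at place 13 of 22, while TRBV3 and TRBV15 kept 7.67 and 6.40. Counting also the barcodes that had been set aside, there were 25, 16 and 45 TRBV20 receptors in LNP-P20-mAb 1 to 3, against 11, 140 and 158 in LNP-Ctrl 1 to 3. Single-cell receptors alone gave 3.99%, 2.97% and 1.71% in LNP-P20-mAb 1 to 3, against 0.305%, 3.37% and 3.90% in LNP-Ctrl 1 to 3.

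By cells the order of the libraries was another. TRBV20 was carried by 1.75%, 0.942% and 7.42% of cells in LNP-P20-mAb 1 to 3, against 14.3%, 2.73% and 4.47% in LNP-Ctrl 1 to 3. LNP-Ctrl 1, lowest by receptors, was highest by cells. Without the largest TRBV20 clone of each library the remaining TRBV20 cells were 0.743%, 0.449% and 3.55% of the cells left in LNP-P20-mAb 1 to 3, against 0.244%, 2.68% and 4.11% in LNP-Ctrl 1 to 3. In LNP-Ctrl 1 this left 7 cells in 6 receptors, while LNP-Ctrl 3 kept 153 cells in 134 receptors.

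**Figure D1:**
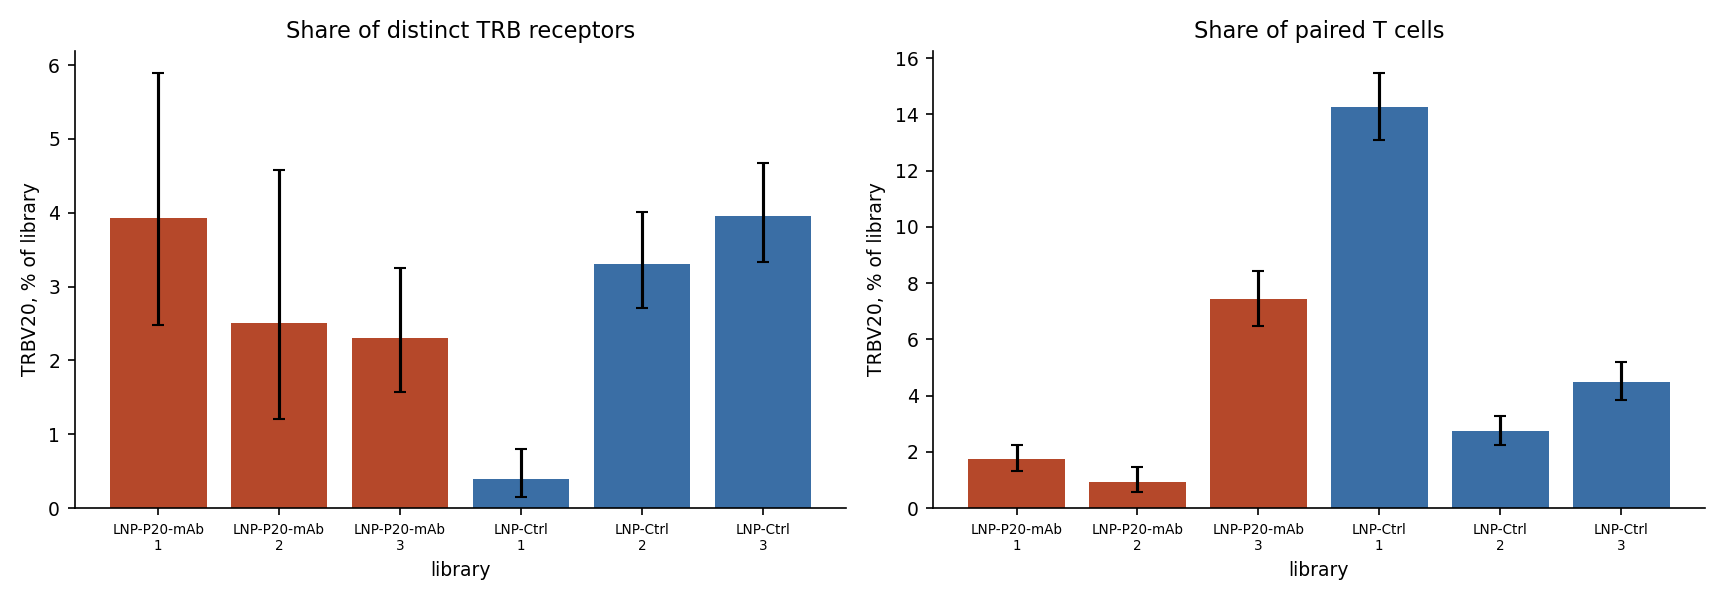
Share of TRBV20 among distinct TRB receptors (left) and among usable cells (right) in each library, in percent, with 95% exact Clopper-Pearson intervals. LNP-Ctrl 1 has the lowest share of receptors, 0.390%, and the highest share of cells, 14.3%.

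TRBV20 usage was compared between treatments on the numbers of distinct receptors. The mean share was 2.92% ± 0.889 with LNP-P20-mAb and 2.55% ± 1.90 with LNP-Ctrl (SD, n = 3 each), and the fitted log2 difference was 0.02 ± 0.43 (SE, edgeR quasi-likelihood test, adjusted p = 0.997). Of the 152 V and J segments tested there, 6 were called, or 3.95%, and TRBV20 was not among them. Without LNP-Ctrl 1 the log2 difference was -0.40 ± 0.22 (edgeR adjusted p = 0.255) and without LNP-P20-mAb 1 it was -0.21 (edgeR adjusted p = 0.901), so no direction can be given. With cells counted in place of receptors it was -1.08.

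Clones among TRBV20 cells were large in some libraries and nearly absent in others. Receptors of 2 or more cells held 68.4%, 52.6% and 90.5% of TRBV20 cells in LNP-P20-mAb 1 to 3, against 98.9%, 9.35% and 23.4% in LNP-Ctrl 1 to 3. All LNP-P20-mAb libraries lay above LNP-Ctrl 2 and 3 and under LNP-Ctrl 1. The means were 70.5% ± 19.03 with LNP-P20-mAb and 43.9% ± 48.2 with LNP-Ctrl (SD, n = 3 each), a difference of 26.6 points (two-sided exact permutation test over 20 assignments, p = 0.5, adjusted p = 0.667 over 4 comparisons of single values). The smallest p that 3 against 3 libraries allow is 0.1. Without LNP-Ctrl 1 the difference was 54.2 points (exact permutation p = 0.1, the smallest for that design), and without LNP-Ctrl 2 or LNP-Ctrl 3 it was 9.37 or 16.4 points. LNP-P20-mAb 3 also moved it: without that library it was 16.6 points. Counting only clones of 20 or more cells as expanded gave 10.5 points (exact permutation p = 1).

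The other cells of the same libraries were expanded to 86.5%, 85.3% and 56.3% in LNP-P20-mAb 1 to 3, and to 42.8%, 27.0% and 11.7% in LNP-Ctrl 1 to 3. TRBV20 cells were more expanded than other cells in LNP-P20-mAb 3, LNP-Ctrl 1 and LNP-Ctrl 3, and less in the rest. The mean difference, TRBV20 minus other cells, was 5.60 ± 34.6 points (SD, n = 6, higher in 3 of 6 libraries, two-sided exact sign-flip permutation test over 64 flips, p = 0.75). It was -4.51 points without LNP-Ctrl 1 and -0.12 points without LNP-P20-mAb 3. At 20 or more cells, 4 TRBV20 clones held 653 cells, in LNP-P20-mAb 1, LNP-P20-mAb 3 and LNP-Ctrl 1.

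**Figure D2:**
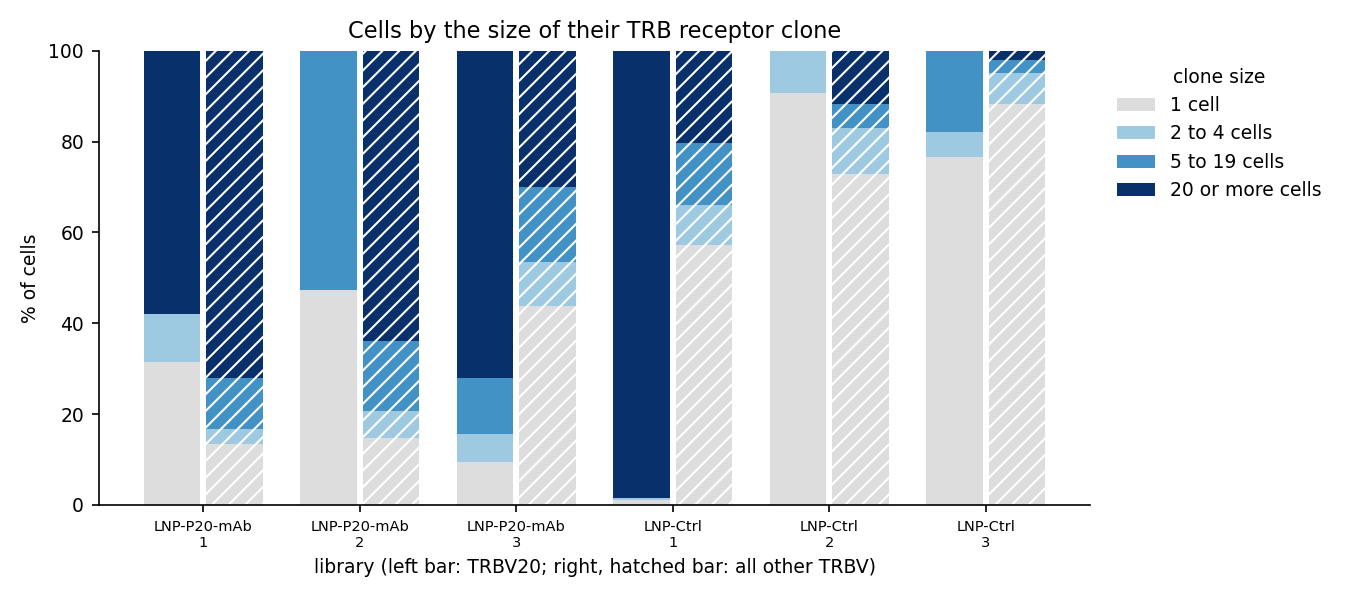
Percent of cells by the size of their clone in each library, with TRBV20 cells in the left bar and all other cells in the right, hatched bar. Nearly all TRBV20 cells of LNP-Ctrl 1 are in 1 clone of 468 cells, while 97 of 107 in LNP-Ctrl 2 and 128 of 167 in LNP-Ctrl 3 carry a receptor seen once.

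In distinct receptors, TRBV20 was not called among clones of 3 or more cells against single-cell receptors of the same library. There were 13 TRBV20 receptors of 3 or more cells, and the log2 difference, clones minus single-cell receptors, was 0.18 ± 0.43 (SE, edgeR quasi-likelihood test with library as a block, adjusted p = 0.926). In that comparison 2 of 152 segments were called, or 1.32%. Leaving out LNP-Ctrl 3 or LNP-P20-mAb 3 gave -0.15 or -0.47, and leaving out LNP-Ctrl 2 gave 0.66, none of them called.

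The share of receptors with a TRAV7 family alpha chain was higher for TRBV20 than for other beta chains in each of the 6 libraries, a difference that did not pass after adjustment. Taking for each receptor the alpha chain on most of its cells, TRAV7 partners were found on 22.7%, 30% and 25.8% of TRBV20 receptors in LNP-P20-mAb 1 to 3 and on 28.6%, 17.6% and 14.8% in LNP-Ctrl 1 to 3. On receptors with other TRBV segments they were found on 13.2%, 13.9% and 10.9% in LNP-P20-mAb 1 to 3 and on 11.4%, 12.9% and 12.9% in LNP-Ctrl 1 to 3. The 2 sets of values did not overlap, although LNP-Ctrl 1 contributed 2 of only 7 TRBV20 receptors and LNP-P20-mAb 2 contributed 3 of 10. The mean was 23.3% ± 6.05 for TRBV20 and 12.5% ± 1.16 for other TRBV (SD, n = 6), a difference of 10.7 points in 6 of 6 libraries. The two-sided exact sign-flip permutation test gave p = 0.031, the smallest that 64 flips allow, and 0.125 after Benjamini-Hochberg adjustment over the 4 comparisons of single values, above the threshold of 0.05. The family was looked at because the largest clones carry it, which makes this test not independent of those clones. Among single-cell receptors alone the difference was 8.88 points (exact sign-flip permutation p = 0.031), but all 3 TRAV7 receptors of LNP-P20-mAb 2 were also in LNP-P20-mAb 1 with the same bases, so these libraries are not independent. With LNP-P20-mAb 1 and 2 pooled the difference over all receptors was 8.88 points (exact sign-flip permutation p = 0.0625, the smallest that 5 samples allow). With both restrictions together, an alternative added after seeing the data, it was 3.80 points, positive in 4 of 5 samples and -2.14 points in the pooled LNP-P20-mAb pair (exact sign-flip permutation p = 0.1875). Pooling makes a receptor of 1 cell in each library of the pair a 2-cell receptor, whatever its TRBV. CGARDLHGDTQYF and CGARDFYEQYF, both with TRAV7, left the single-cell set in this way.

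**Figure D3:**
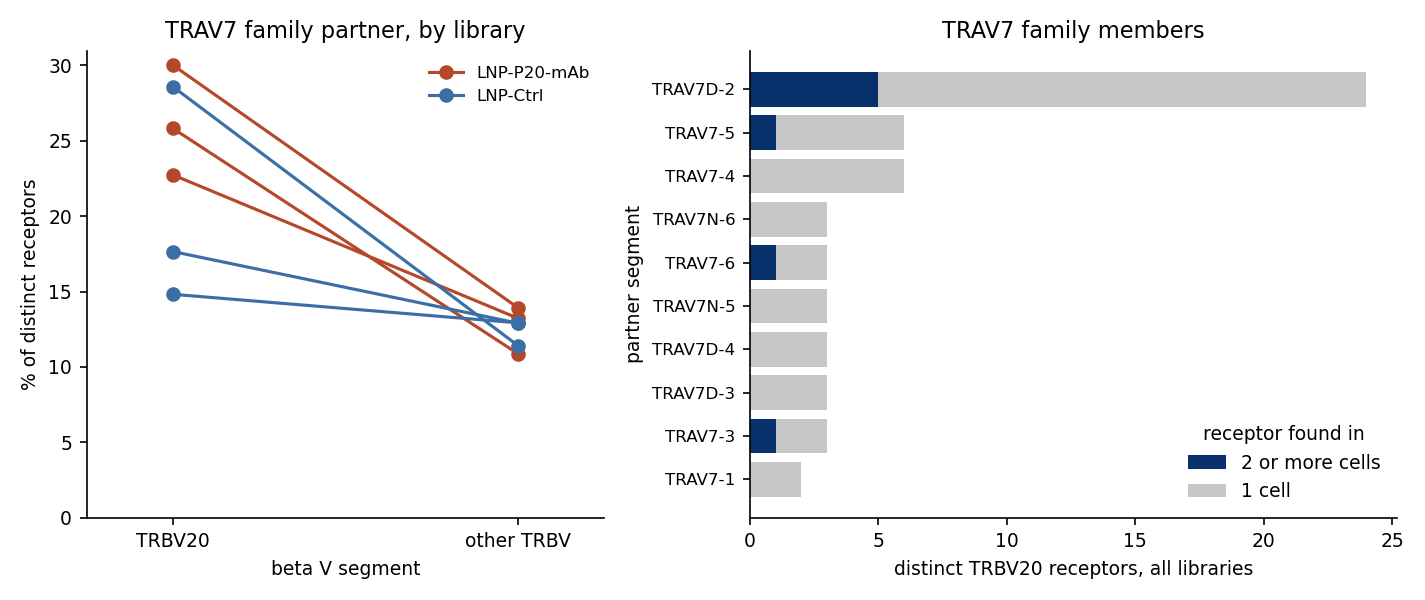
Left, percent of distinct receptors with a TRAV7 family partner among TRBV20 and among other TRBV receptors, 1 line per library. The TRBV20 end is higher in all 6 libraries, at 14.8% to 30% against 10.9% to 13.9%. Right, number of distinct TRBV20 receptors with each TRAV7 member over all libraries, split by clone size, with TRAV7D-2 at 24 and each other member at 6 or fewer.

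By count the family held 56 TRBV20 receptors (18.2%) and 702 TRBV20 cells (67.8%). TRAV7D-2 was the most frequent member, with 24 receptors, of which 19 were single cells. TRAV7-4 and TRAV7-5 had 6 receptors each, TRAV7-3, TRAV7-6, TRAV7D-3, TRAV7D-4, TRAV7N-5 and TRAV7N-6 had 3 each, TRAV7-1 had 2 and TRAV7N-4 had 0. Among the 13 TRBV20 receptors of 3 or more cells, 6 carried TRAV7 (46.2%), against 16.3% of receptors of that size with other TRBV. The family was picked because these clones carry it, so this contrast is a description and no separate evidence. The clone shared by LNP-P20-mAb 1 and 2 is counted once for each library.

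TRAV7D-2 was the partner of 3, 2 and 5 TRBV20 receptors in LNP-P20-mAb 1 to 3 and of 1, 7 and 6 in LNP-Ctrl 1 to 3. Its share averaged 12.6% ± 5.84 of TRBV20 receptors and 3.55% ± 1.04 of other receptors (SD, n = 6 libraries) and was higher with TRBV20 in 6 of 6. The log2 difference was 1.23 ± 0.37 (SE, edgeR quasi-likelihood test with library as a block, adjusted p = 0.110 over 130 TRAV, TRAJ and TRBJ segments). In that comparison edgeR called 0 of 130 segments (0%, with 6 or 4.62% below an unadjusted p of 0.05), and DESeq2 called 0 (0%, with 1 or 0.769% below an unadjusted p of 0.05). Over the alternatives tried, the adjusted p of TRAV7D-2 ran up to 0.546. It was 0.0229 without LNP-Ctrl 3, the single setting with a call. With TMM scaling the log2 difference was 0.63 (edgeR adjusted p = 0.434). The fitted log2 differences of the other TRAV7 members with 2 or more TRBV20 receptors ran from -0.32 ± 0.72 for TRAV7-3 to 0.78 ± 0.73 for TRAV7D-4, none of them called.

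The next lowest p-values belonged to 2 alpha V and 2 alpha J segments, none of them called. TRAV9-1 and TRAV6-5 were each the partner of 0 of 307 TRBV20 receptors, which allows a share of up to 0.977%, and of 143 and 109 of the 10279 other receptors, or 1.41% ± 0.388 and 0.886% ± 0.343 per library (SD, n = 6). TRAJ57 joined 12 TRBV20 receptors, with a log2 difference of 1.06 ± 0.48 (edgeR adjusted p = 0.696), or 0.46 with TMM scaling (edgeR adjusted p = 0.664). TRAJ39 joined 2, with a log2 difference of -1.83 ± 0.82 (edgeR adjusted p = 0.696). After TRAV7, the alpha families most often paired with TRBV20 were TRAV13 with 39 receptors, TRAV14 with 37, TRAV12 with 32, TRAV6 with 31 and TRAV16 with 25. The most frequent alpha J segments were TRAJ22 with 20 receptors, TRAJ31 with 17 and TRAJ30 with 16. TRAJ30 alone held 47.9% of TRBV20 cells, through the clone of LNP-Ctrl 1. The invariant alpha pairings that define iNKT cells (TRAV11 with TRAJ18) and MAIT cells (TRAV1 with TRAJ33) were found on 0 of 52 and 0 of 16 such receptors with TRBV20. As TRBV20 was 2.90% of all receptors, these numbers are too small to set it apart.

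Cells with 2 alpha chains were frequent in 1 library. They were 1.75%, 0% and 58.3% of TRBV20 cells in LNP-P20-mAb 1 to 3 and 0%, 20.6% and 16.8% in LNP-Ctrl 1 to 3. Among other cells they were 8.20%, 7.76% and 21.1% in LNP-P20-mAb 1 to 3 and 12.8%, 12.5% and 14.1% in LNP-Ctrl 1 to 3. Of the 123 such TRBV20 cells in LNP-P20-mAb 3, 107 belonged to the clone of 114 cells and 12 to the clone of 13 cells. Barcodes with 2 TRB chains had been set aside as possible doublets. The TRBV20 chains on them numbered 0, 4 and 22 in LNP-P20-mAb 1 to 3, against 77, 29 and 17 in LNP-Ctrl 1 to 3. A barcode whose 2 TRB chains were both TRBV20 counts here with both. In LNP-Ctrl 1, 37 of the 77 chains were the chain of the clone of 468 cells, and their barcodes are not among the 468. That library had 561 TRBV20 chains on 524 barcodes in all, so some barcodes held 2 TRBV20 chains.

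TRBV20 made short beta CDR3 loops. The mean length per library was 12.6, 12.7 and 13.1 amino acids for TRBV20 in LNP-P20-mAb 1 to 3 and 13.0, 13.1 and 12.9 in LNP-Ctrl 1 to 3. Other TRBV receptors averaged 14.1, 14.0 and 14.1 in LNP-P20-mAb 1 to 3 and 14.0, 14.0 and 14.0 in LNP-Ctrl 1 to 3, so that the mean TRBV20 loop was the shorter in each of the 6 libraries. The loop of TRBV20 spanned 7 to 17 residues with a median of 13. Between treatments the mean was 12.80 ± 0.266 residues with LNP-P20-mAb and 13.01 ± 0.0708 with LNP-Ctrl (SD, n = 3 each), a difference of -0.216 (two-sided exact permutation test, p = 0.4, adjusted p = 0.667). It was -0.367 residues without LNP-P20-mAb 3 and -0.372 with barcodes of 2 TRB chains kept (exact permutation p = 0.1 each, the smallest these designs allow).

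**Figure D4:**
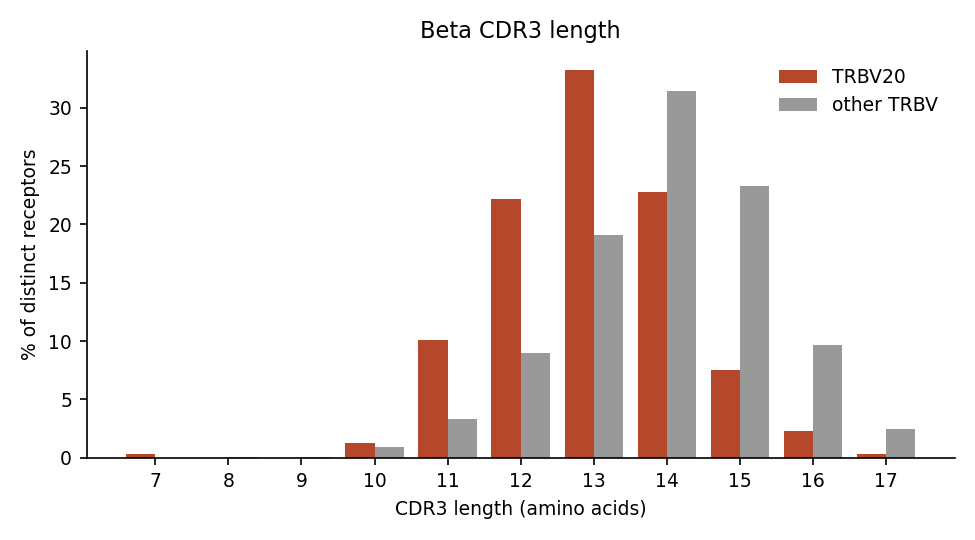
Percent of distinct receptors by beta CDR3 length in amino acids, for TRBV20 and for all other TRBV, over the lengths seen with TRBV20. TRBV20 peaks at 13 residues (33.2%) and other TRBV at 14 (31.4%).

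At the joint, a median of 12 of the 14 bases of the shared start were kept, and all 14 in 92 receptors. Between the kept V and J ends lay a mean of 8.75 bases with TRBV20 and 9.85 with other TRBV, from 0 to 20 with TRBV20. Library means were 7.14, 7.10 and 8.32 bases in LNP-P20-mAb 1 to 3, against 9.14, 9.00 and 9.01 in LNP-Ctrl 1 to 3. The groups did not overlap. Other TRBV receptors had means of 9.98, 9.93 and 10.18 bases in LNP-P20-mAb 1 to 3, against 9.78, 9.84 and 9.72 in LNP-Ctrl 1 to 3. Those groups did not overlap either, but in the opposite direction. This measure was not tested, and LNP-P20-mAb 1 and 2 share clones. LNP-Ctrl 1 and LNP-P20-mAb 2 held only 7 and 10 TRBV20 receptors. At the short end, 30 receptors had 3 or fewer such bases. An example is the 38-cell clone shown above, with 2, and another is the 14-cell clone, with 3.

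The CDR3 began with CGAR in 211 of 307 TRBV20 receptors (68.7%) and in 0 of 10279 others. The segment can write this start, but in some receptors, such as the 38-cell clone shown above, the arginine holds bases of the joint. At the fourth residue, arginine stood in 212, serine in 31, glycine in 17 and threonine in 9. Arginine was at this place in 46 of 63 receptors with LNP-P20-mAb (73.0%) and in 166 of 244 with LNP-Ctrl (68.0%). J segments of the second cluster were used by 59.9% of TRBV20 receptors and 68.1% of others over all libraries. By library the order was reversed in LNP-P20-mAb 2 (70% against 68.8%) and LNP-Ctrl 1 (85.7% against 68.9%). The J segments most often used with TRBV20 were TRBJ2-7 with 56 receptors, TRBJ1-1 with 40 and TRBJ2-1 with 35.

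Behind the fourth residue, the most frequent 3-letter stretches were DWG in 22 receptors, TGG in 18, GGA and GQG in 15, GGN and NYA in 14, SGN in 13 and ANT in 12. Beside other TRBV, DWG was in 7.17% of TRBV20 and 6.71% of other receptors, TGG in 5.86% and 6.84%, and GGA in 4.89% and 5.32%. GQG was in 4.89% and 3.48%, GGN in 4.56% and 2.77%, and NYA in 4.56% and 3.77%. SGN was in 4.23% and 2.71%, and ANT in 3.91% and 2.68%. All TRBV20 receptors with SGN used TRBJ1-3, and all with ANT used TRBJ1-1. None of these shares was tested. NYA, in receptors that all used TRBJ2-1, was found in all 6 libraries and in the clones of 468 and 13 cells. DWG was in 0, 0 and 1 TRBV20 receptors of LNP-P20-mAb 1 to 3, against 0, 5 and 16 of LNP-Ctrl 1 to 3, so that most came from LNP-Ctrl 3. Of the 22, 19 were single cells.

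Some TRBV20 receptors returned in another library with nearly the same alpha chain but other bases. Receptors were called alike when they came from different samples, had the same beta V segment and equal loop lengths, and differed by at most 2 residues in each CDR3, with LNP-P20-mAb 1 and 2 taken as 1 sample and iNKT-type and MAIT-type receptors left out. By this measure, chosen after seeing the clones, 16 of 307 TRBV20 receptors (5.21%) had a near match, against 296 of all other TRBV receptors (2.90%). TRBV20 ranked second of 22 labels after TRBV10 at 9.11%. Of the 16, 9 were single cells and 5 had 3 or more cells, 10 carried TRAV7 and 4 carried TRAV16. Among the 16, the receptor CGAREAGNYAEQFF of LNP-P20-mAb 1 and 2 is counted once for each of these libraries. The share depends on how many receptors each library holds, and no test was made. It can also depend on loop length, as the same 2 changes are allowed at any length. TRBV20 loops were the shorter, with a mean of 12.98 residues against 14.02 for other TRBV.

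**Figure D5:**
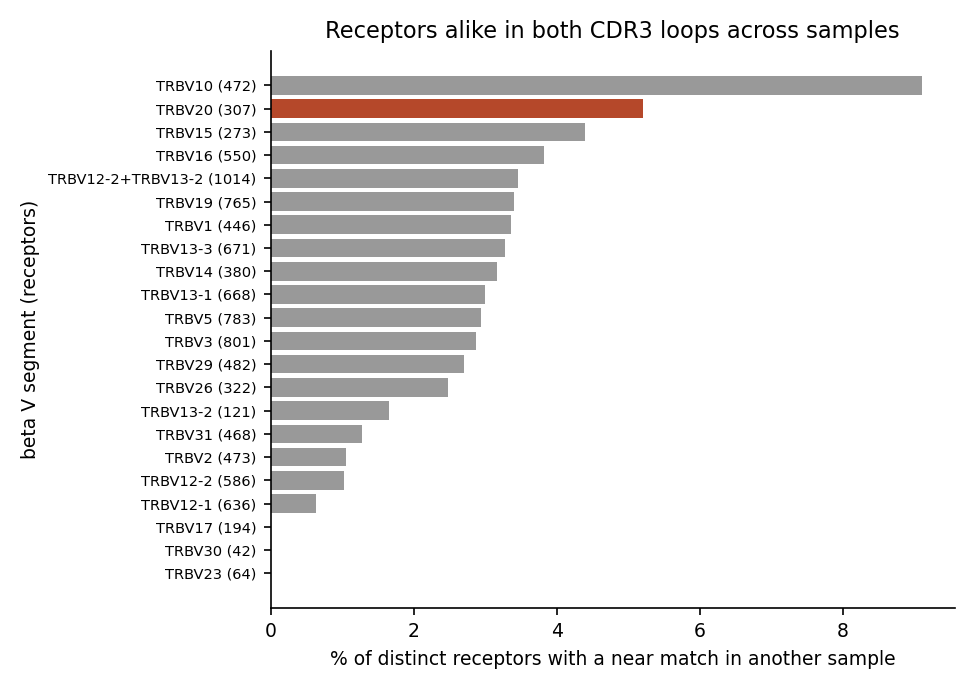
Percent of distinct receptors with a near match in another sample, by beta V label, with the number of receptors in brackets. TRBV20 (307 receptors) is second at 5.21%, after TRBV10 at 9.11%.

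The first such set holds the largest clone. Its beta and alpha loops are printed because the same 2 loops were written with other bases in LNP-P20-mAb 1 and 2, and with small changes in LNP-P20-mAb 3.

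LNP-P20-mAb 1, beta, 2 cells: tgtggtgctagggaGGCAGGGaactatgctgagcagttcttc
LNP-P20-mAb 3, beta, 13 cells: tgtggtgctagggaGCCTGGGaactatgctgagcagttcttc
LNP-P20-mAb 3, beta, 1 cell: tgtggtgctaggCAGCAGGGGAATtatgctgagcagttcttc
LNP-Ctrl 1, beta, 468 cells: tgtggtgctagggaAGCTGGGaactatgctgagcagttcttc
LNP-P20-mAb 1, alpha: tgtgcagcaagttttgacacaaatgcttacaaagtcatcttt
LNP-P20-mAb 3, alpha, 13 cells: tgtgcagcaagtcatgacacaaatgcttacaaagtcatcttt
LNP-Ctrl 1, alpha: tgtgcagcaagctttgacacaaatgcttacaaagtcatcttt

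All of these alpha chains were TRAV7D-2 with TRAJ30, and all of the beta chains used TRBJ2-1. The receptor of LNP-P20-mAb 1, found again in 1 cell of LNP-P20-mAb 2, had the same amino acids in both loops as the clone of LNP-Ctrl 1, and differed from it at 2 bases of the beta and 1 base of the alpha loop. The 13-cell clone of LNP-P20-mAb 3 differed from the clone of LNP-Ctrl 1 by 1 residue in each loop. The single cell of LNP-P20-mAb 3, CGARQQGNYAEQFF, had the alpha amino acids of the clone of LNP-Ctrl 1 and 2 changed residues in the beta loop. These receptors were thus in 4 libraries, with 2, 1 and 14 cells in LNP-P20-mAb 1 to 3 and 468 cells in LNP-Ctrl 1. Alpha chains like that of the largest clone (same family and J segment, at most 2 changed residues) were found on 13 other receptors of 7 TRBV labels, of which 4 were TRBV20. All 3 with the same alpha amino acids were TRBV20. In both counts the receptor shared by LNP-P20-mAb 1 and 2 stands once for each of these libraries, which are not independent.

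The second set is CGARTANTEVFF with TRBJ1-1, TRAV7D-2 and TRAJ22. It is printed because 4 DNA forms wrote 1 loop.

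LNP-P20-mAb 3, 3 cells: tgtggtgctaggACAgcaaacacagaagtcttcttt
LNP-P20-mAb 3, 1 cell: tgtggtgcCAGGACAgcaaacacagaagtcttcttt
LNP-Ctrl 3, 1 cell: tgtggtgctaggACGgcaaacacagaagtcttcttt
LNP-Ctrl 3, another cell: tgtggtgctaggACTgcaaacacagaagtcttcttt

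Of these, 3 carried the alpha CDR3 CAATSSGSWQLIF, and the single cell of LNP-P20-mAb 3 carried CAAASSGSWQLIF, which is the alpha loop of the 38-cell clone of the same library. This loop was common with other beta segments: of 39 receptors with a like alpha chain, over 16 TRBV labels, 5 were TRBV20, and of 7 with the same amino acids 1 was TRBV20. A further cell of LNP-Ctrl 3, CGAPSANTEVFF, had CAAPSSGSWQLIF. No more than 3 cells shared any of these receptors.

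The third set has glycine, threonine and 2 glycines from the fourth residue on, and a TRAV16 family partner.

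LNP-Ctrl 1, 2 cells: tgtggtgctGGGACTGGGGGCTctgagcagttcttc
LNP-Ctrl 2, 1 cell: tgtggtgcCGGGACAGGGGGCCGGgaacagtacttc
LNP-Ctrl 3, 9 cells: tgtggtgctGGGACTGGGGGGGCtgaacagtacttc
LNP-Ctrl 3, 7 cells: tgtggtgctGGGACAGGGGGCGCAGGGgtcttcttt
LNP-Ctrl 3, 3 cells: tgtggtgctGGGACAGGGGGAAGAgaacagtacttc

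There were 7 TRBV20 receptors with this stretch, none among the 63 of LNP-P20-mAb and 7 among the 244 of LNP-Ctrl, a number too small to set the treatments apart. Of the 7, 5 had a TRAV16 family partner, against 20 of the 300 other TRBV20 receptors (6.67%). The stretch was picked after its values were seen, and its share among other TRBV receptors is not given here. The letters TGG within it were in 5.86% of TRBV20 and 6.84% of other receptors. The receptors of 1 and 3 cells in LNP-Ctrl 2 and LNP-Ctrl 3 both read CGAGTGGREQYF, and their alpha chains, TRAV16 with TRAJ57, had the same amino acids and differed at 1 base. The receptors of LNP-Ctrl 1 and of the 9-cell clone of LNP-Ctrl 3 had the same alpha loop with TRAJ42, down to each base. In LNP-P20-mAb 3 an 8-cell clone with another start, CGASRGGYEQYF, carried the alpha amino acids of the TRAJ57 pair.

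Beta loops were also compared without regard to the alpha chain. Of 292 TRBV20 amino-acid receptors (J segment and CDR3), 11 were in 2 or more libraries, 7 of them beyond the pair of LNP-P20-mAb 1 and 2. With that pair as 1 sample the share was 2.40%, against 1.30% for other TRBV, as a description. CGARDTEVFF, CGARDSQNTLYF and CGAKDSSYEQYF were each in 1 cell of LNP-Ctrl 2 and 1 of LNP-Ctrl 3, and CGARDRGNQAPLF in 1 cell of LNP-P20-mAb 1 and also 1 cell of LNP-Ctrl 3. Each of these 4 had 2 different alpha loops. Those of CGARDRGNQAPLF, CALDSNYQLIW and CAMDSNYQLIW, differed by only 1 residue, so this receptor is also among the near matches above. Between treatments, 3 of the recurrent beta loops were in libraries of both: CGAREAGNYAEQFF, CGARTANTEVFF and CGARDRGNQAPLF. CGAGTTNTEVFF, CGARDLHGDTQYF and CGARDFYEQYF were found in LNP-P20-mAb 1 and 2 with the same bases, as was the clone of 33 and 10 cells.

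The remaining TRBV20 receptors were single cells or small clones. Between them lay clones of 9, 8, 7 and 5 cells. The 5-cell clone, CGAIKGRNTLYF in LNP-P20-mAb 3, carried TRAV14-2 with TRAJ48, and none of 13 receptors with a like alpha chain had TRBV20. A median of 15, 19 and 13 UMIs stood behind a TRBV20 beta chain in LNP-P20-mAb 1 to 3, against 31, 11 and 15 in LNP-Ctrl 1 to 3, and other beta chains had 19, 21 and 19 in LNP-P20-mAb 1 to 3, against 19, 14 and 15 in LNP-Ctrl 1 to 3. The large clone of LNP-Ctrl 1 had a median of 32.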

How the data were processed

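TCR libraries were analysed in 6 samples, grouped by their titles; the samples of gene expression are not analysed here. The deposited tables list assembled chains with read and UMI counts per chain, which the authors left as raw counts. Cell Ranger 8.0.1 is named in the submitters' processing notes, as are several mouse builds with no role stated, and coordinates are left out. All 48792 chains were marked productive, and chains or cells dropped before deposit leave no trace. Cells had 1 TRB and 1 or 2 TRA chains; 1844 barcodes with 2 TRB chains were left out as possible doublets.

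Segment counts of distinct receptors were tested with edgeR 4.0.16 in R 4.3.3 (quasi-likelihood, number of receptors as library size, no further scaling, segments of 30 or more receptors, Benjamini-Hochberg, threshold 0.05), with DESeq2 1.42.0 as an alternative. Single values had two-sided exact permutation tests. Other steps ran in Python 3.11.15 (pandas 2.3.3, numpy 2.4.6, scipy 1.17.1; figures by matplotlib 3.10.9). The edgeR fits were tested on simulated counts, and the exact tests on small fixed inputs with known answers. Clones of 10 or more cells, receptors in 2 or more libraries, the 5 partner segments of lowest p, all TRAV7 members and the 8 most frequent 3-letter stretches (5 or more receptors, 3 or more libraries) were named. The receptors and lists were chosen with earlier results of these data known. Alternatives left out each library, pooled LNP-P20-mAb 1 and 2, kept 2-TRB barcodes, asked 3 or more UMIs and changed scaling, filter, clone size or counting unit. Libraries of 2016 to 3923 cells limit the precision. The TCR gene name was read from a RefSeq table for GRCm38.p6.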

Additional observations from a re-analysis of the deposited data

How the results depend on the processing

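No call on TRBV20 usage was made under any alternative, but directions were not stable. Usage by treatment (log2 0.02) was -0.029 with LNP-P20-mAb 1 and 2 pooled, -1.08 with cells counted, and -0.40 to 0.47 when each library was left out. Usage by expansion (log2 0.18) was -0.13 with TMM scaling, -0.0085 with 2-TRB barcodes kept, and -0.47 to 0.66 when each library was left out. The cause was not tested. The expanded share, TRBV20 minus other cells, ran from -4.51 to 13.2 points over the left-out libraries. The TRAV7 excess was 8.88 points with the pair pooled and 9.43 to 12.5 points without each library, with 5 samples and a smallest p of 0.0625. It was 3.80 points for single-cell receptors with the pair pooled, added after seeing the data. Partner segments called numbered 0 to 1 over the left-out libraries, the 1 being TRAV7D-2 without LNP-Ctrl 3. TRAV9-1 was 0 only by main partner: with every chain pair counted its log2 difference was -0.75. Same-numbered libraries did not deviate together (r = -0.0244, -0.1202 and -0.0502 over 152 segments); with the replicate number as a block, usage gave 0.16, expanded share 26.6 points (exact permutation p = 0.5) and CDR3 length -0.216 residues (exact permutation p = 0.5), with no call. Receptor numbers of 7 to 135 per library limit every share among TRBV20 receptors.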
